A study of Mus musculus with 7 samples.

Results

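Bcor, Gse1, Bahcc1 and Prr12 encode large nuclear proteins, the first 3 of them tied to gene repression. They were chosen for description by their large rise in RNA bound to ribosomes of striatal cholinergic cells when p11 was deleted in these cells. Bcorl1, Bahd1, Kdm1a, Rcor1, Hdac1 and Bcl6 were added for contrast, as relatives or partners of the first 4. All 10 genes were found by symbol among 22016 rows with 21636 symbols, and all 10 had a mean of at least 1 FPKM (fragment counts scaled to transcript length and library size) and were among the 10089 rows tested. The values that chose the first 4 genes were the KO and WT levels themselves, so their difference is described below without a test.

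BCOR was found as a corepressor that binds the zinc finger repressor BCL6, and it is also a core subunit of PRC1.1, a variant polycomb complex that places ubiquitin on histone H2A at unmethylated CpG islands. GSE1 copurifies with the LSD1-CoREST complex, in which KDM1A removes methyl groups from histone H3, HDAC1 removes acetyl groups, and RCOR1 joins them. BAHCC1 carries a BAH domain that reads the polycomb mark H3K27me3, as the BAH domain of BAHD1 does, and PRR12 is a proline-rich nuclear protein whose loss in humans causes a neurodevelopmental and eye disorder.

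The libraries were made from RNA bound to tagged ribosomes, pulled down from the ventral striatum of ChAT TRAP mice, in which the Chat promoter drives the tag. All mice were on a C57/Bl6N background, were 8 to 12 weeks old, received no treatment and carried p11 fl/fl, a floxed S100a10 gene. The 4 KO libraries came from mice that also carried ChAT Cre, and the 3 WT libraries from mice without it, so an effect of Cre itself and one of the deletion cannot be told apart. Each library pooled 6 striata of 3 mice, and p-values therefore measure the spread between pools.

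S100a10, the deleted gene, averaged 350 ± 32.6 FPKM over the WT libraries (SD, n = 3) and 136 ± 41.5 FPKM over the KO libraries (SD, n = 4), 38.9% of the WT level. Summed FPKM ran from 379417 to 511328 per library, and the read depth was unknown. The WT libraries carry numbers between 83 and 113 in the header of the data, and the KO libraries numbers between 210 and 222, so library number and genotype cannot be told apart. WT2, WT3 and KO2 had 0 FPKM for all 4 Y-linked genes looked up, Ddx3y, Eif2s3y, Kdm5d and Uty. Summed FPKM of 7 cholinergic markers was 1180 to 1321 in WT and 910 to 1107 in KO. Most of that gap lay in Slc18a3, at 543 and 322 FPKM on average, while Lhx8 was higher in every KO library than in WT and Slc5a7 and Gbx2 overlapped between the groups. Summed FPKM of 6 markers of medium spiny neurons was 273.3 in KO1 and 69.2 to 111.0 in the other libraries, so KO1 stood apart. In RNA pulled down from pooled tissue, the number of cells of a type, the RNA per cell and the purity of the pull-down cannot be told apart.

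The promoters of the 4 rising genes are shown so that the letters of their start regions can be compared. Their shared direction follows from how the genes were chosen. Each run is 300 bases, 250 before and 50 after a RefSeq start, on build GRCm38.p6 and on the strand of the gene. Bcor lies at chrX:12160297-12160596 on the minus strand (1 of 2 entries) and Gse1 at chr8:120488616-120488915 on the plus strand (1 of 3 entries). Bahcc1 lies at chr11:120232697-120232996 on the plus strand and Prr12 at chr7:45053285-45053584 on the minus strand. Only the Bahcc1 run is placed at the start of the transcript whose length is given below. The Bcor run belongs to another start. The Gse1 run begins downstream of the start of that transcript, at 120488447. The Prr12 run lies wholly upstream of the annotated span of Prr12. Capitals mark 2 motifs searched on both strands, the GC box GGGCGG and the BCL6 half-site pair TTCNNNGAA.
Bcor: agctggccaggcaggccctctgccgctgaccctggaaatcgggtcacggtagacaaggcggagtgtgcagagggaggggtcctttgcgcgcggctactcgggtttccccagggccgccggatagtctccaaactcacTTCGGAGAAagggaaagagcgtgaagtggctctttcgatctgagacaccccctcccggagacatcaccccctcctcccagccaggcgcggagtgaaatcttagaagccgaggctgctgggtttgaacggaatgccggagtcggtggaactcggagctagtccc
Gse1: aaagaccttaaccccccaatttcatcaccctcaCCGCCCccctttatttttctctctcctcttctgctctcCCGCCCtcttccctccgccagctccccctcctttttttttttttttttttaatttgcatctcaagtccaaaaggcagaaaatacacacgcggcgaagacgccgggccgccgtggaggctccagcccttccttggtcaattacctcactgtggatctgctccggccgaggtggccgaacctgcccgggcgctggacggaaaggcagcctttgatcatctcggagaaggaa
Bahcc1: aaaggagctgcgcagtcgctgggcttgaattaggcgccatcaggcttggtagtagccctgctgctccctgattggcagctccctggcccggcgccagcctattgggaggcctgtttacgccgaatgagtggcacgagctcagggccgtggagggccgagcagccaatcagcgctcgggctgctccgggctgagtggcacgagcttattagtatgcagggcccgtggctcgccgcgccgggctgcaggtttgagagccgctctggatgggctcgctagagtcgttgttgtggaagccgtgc
Prr12: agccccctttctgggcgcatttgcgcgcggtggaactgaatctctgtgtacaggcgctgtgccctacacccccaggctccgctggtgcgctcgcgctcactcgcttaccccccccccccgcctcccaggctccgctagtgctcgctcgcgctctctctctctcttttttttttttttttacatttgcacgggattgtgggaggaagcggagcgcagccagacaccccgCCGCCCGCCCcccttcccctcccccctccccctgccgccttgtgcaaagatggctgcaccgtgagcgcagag
None of the motifs occurred in all 4 runs. Bcor held 1 TTCNNNGAA and no GC box, Gse1 held 2 GC boxes, Prr12 held 2 GC boxes that overlap each other, and Bahcc1 held neither. None of the 4 held the cyclic AMP element TGACGTCA. Of 32851 RefSeq promoters of this length, 35.7% held GGGCGG, 8.30% TTCNNNGAA and 1.79% TGACGTCA. The 4 runs held 21, 17, 23 and 24 CpG dinucleotides in the order printed, beside a median of 7 over all promoters, and lay at percentiles 76.9, 70.3, 80.0 and 81.6. Of the relatives, Bcorl1 held 21, Kdm1a 29, Rcor1 31, Bcl6 31 and Bahd1 45. Among the relatives, GGGCGG occurred 6 times in Bahd1, 6 times in Rcor1, 2 times in Bcl6, 1 time in Bcorl1 and 0 times in Kdm1a, and Bcl6 also held 1 TTCNNNGAA. A match of letters is a description of the window and not a bound site.

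Bcor, the BCL6 corepressor, was measured at 10.5, 14.0 and 19.1 FPKM in the libraries WT1 to WT3, and at 155.0, 99.8, 136.2 and 89.6 in KO1 to KO4. The lowest KO library was 4.69 times the highest WT library. The mean went from 14.5 ± 4.32 FPKM (SD, n = 3) to 120 ± 30.7 (SD, n = 4), a ratio of 8.27, and the difference on the log2(FPKM + 1) scale was 2.97 (SE 0.23, 95% interval 2.47 to 3.46). Among the levels of the tested rows, Bcor moved from percentile 61.5 in WT to 93.2 in KO. Of 10089 tested rows, 176 or 1.74% passed the limma test at an adjusted p of 0.05, with 98 or 0.971% higher and 78 or 0.773% lower in KO. By log2 difference Bcor ranked 6 among all tested rows, a rank that follows from how the genes were chosen.

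Gse1, the CoREST-associated gene, had levels of 12.0, 15.8 and 19.6 FPKM in the libraries WT1 to WT3, and of 91.0, 92.1, 109.4 and 142.2 in KO1 to KO4. The groups were again apart, with 4.64 times between the nearest libraries. The mean went from 15.8 ± 3.80 to 109 ± 23.9 FPKM (SD, n = 3 and n = 4), a ratio of 6.88 and a log2 difference of 2.71 (SE 0.20, 95% interval 2.27 to 3.14). Bcor and Gse1 were thus at like levels in both groups, and their ranges overlapped within WT and within KO.

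Bahcc1, the H3K27me3 reader, was the lowest of the 4 in WT, at 2.1, 3.1 and 4.0 FPKM, and stood at 33.4, 25.6, 18.8 and 10.3 FPKM in KO1 to KO4. The KO libraries spread 3.24-fold from the lowest to the highest, and the lowest was still 2.58 times the highest WT library. The mean went from 3.07 ± 0.950 to 22.0 ± 9.83 FPKM (SD, n = 3 and n = 4), a ratio of 7.18. The log2 difference was 2.41 (SE 0.32, 95% interval 1.72 to 3.11), a scale that understates the change of a gene this low in WT: with a pseudocount of 5 it was 1.67.

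Prr12 had 9.2, 10.3 and 11.7 FPKM in the libraries WT1 to WT3, and 25.8, 65.5, 37.1 and 80.8 in KO1 to KO4. The WT libraries were close together, whereas the KO libraries spread 3.13-fold. The mean went from 10.4 ± 1.25 to 52.3 ± 25.3 FPKM (SD, n = 3 and n = 4), a ratio of 5.03 and a log2 difference of 2.1 (SE 0.31, 95% interval 1.41 to 2.78). The KO libraries lay above all WT libraries in all 4 genes, as the choice by rise favours, and over all tested rows this held for 919 or 9.11%, while 836 or 8.29% had all KO libraries below.

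**Figure D1:**
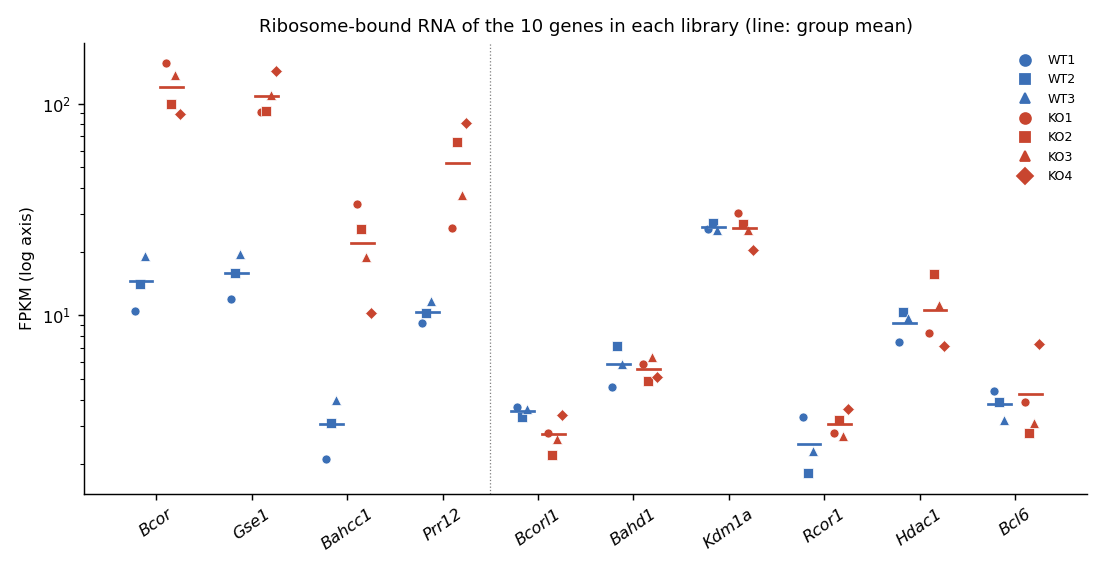
FPKM of the 10 genes in each of the 3 WT and 4 KO libraries on a log axis, 1 point per library with the mean of each group as a bar. For Bcor, Gse1, Bahcc1 and Prr12 every KO point lies above every WT point, and for the 6 relatives the points of the groups overlap.

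None of the 6 relatives passed the test. Bcorl1, the closest relative of Bcor and its alternative in PRC1.1, stood at 3.7, 3.3 and 3.6 FPKM in WT and at 2.8, 2.2, 2.6 and 3.4 in KO. All but KO4 were below every WT library. The log2 difference of Bcorl1 was -0.28 (95% interval -0.68 to 0.12, limma adjusted p = 0.43), opposite in sign to that of Bcor. Bcl6, the transcription factor that recruits BCOR, was listed at 4.4, 3.9 and 3.2 FPKM in WT and at 3.9, 2.8, 3.1 and 7.3 in KO, with KO4 above the rest and the others overlapping. Its log2 difference was 0.06 (95% interval -0.50 to 0.63, limma adjusted p = 0.92).

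The LSD1-CoREST core differed little in its means. Kdm1a, the demethylase LSD1, stood at 25.7, 27.3 and 25.2 FPKM in WT and at 30.4, 27, 25.3 and 20.3 in KO, with WT inside the KO range. Its log2 difference was -0.03 (95% interval -0.38 to 0.32, limma adjusted p = 0.94). Rcor1, the CoREST scaffold, was at 3.3, 1.8 and 2.3 FPKM in WT and 2.8, 3.2, 2.7 and 3.6 in KO, and its log2 difference was 0.25 (95% interval -0.19 to 0.69, limma adjusted p = 0.53). Hdac1, a deacetylase of the complex, was at 7.5, 10.4 and 9.7 FPKM in WT and 8.3, 15.7, 11.2 and 7.2 in KO. The log2 difference of Hdac1 was 0.14 (95% interval -0.37 to 0.66, limma adjusted p = 0.79). The groups overlapped in both genes, and KO2 was the highest library for Hdac1. Reads of Hdac1 may be split with near-identical copies, since 62.7% of the 31-base words of its transcript occur in transcripts of other genes. Bahd1, the heterochromatin protein whose BAH domain reads the same mark as that of BAHCC1, stood at 4.6, 7.2 and 5.9 FPKM in WT and 5.9, 4.9, 6.4 and 5.1 in KO. The KO values lay within the WT range, with a log2 difference of -0.06 (95% interval -0.46 to 0.35, limma adjusted p = 0.90). The 95% intervals of all 6 relatives include 0, and the highest of their upper bounds is 0.69, that of Rcor1.

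**Figure D2:**
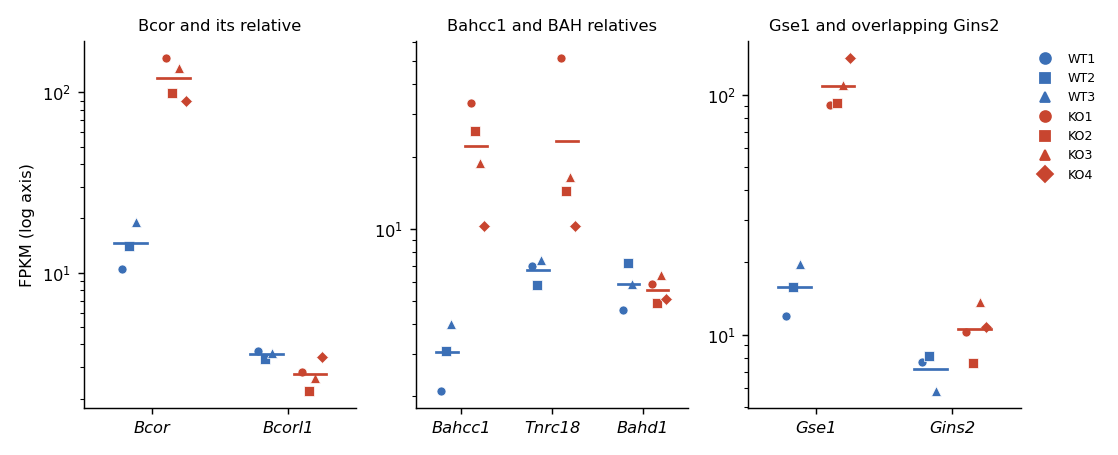
FPKM on a log axis of Bcor and Bcorl1, of Bahcc1, Tnrc18 and Bahd1, and of Gse1 and Gins2, with 1 marker shape per library and the group mean as a bar. Bcor, Bahcc1, Tnrc18 and Gse1 have every KO point above every WT point, and Bcorl1, Bahd1 and Gins2 have overlapping groups.

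Because FPKM is scaled to length, levels of different genes can be set against each other within a library. Bcor was 2.84 to 5.31 times the level of Bcorl1 in the WT libraries and 26.4 to 55.4 times in the KO libraries. Against its partner Bcl6, Bcor was 2.39 to 5.97 times as high in WT and 12.3 to 43.9 times in KO. Gse1 was below Kdm1a in every WT library, at a ratio of 0.467 to 0.778, and above it in every KO library, at 2.99 to 7.0. The order of the pair was thus exchanged between the groups. Bahcc1 was below Bahd1 in WT, at 0.431 to 0.678, and above it in KO, at 2.02 to 5.66. These ratios carry the rise that chose Bcor, Gse1 and Bahcc1 and are a description.

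By mean FPKM the order in WT was Kdm1a, Gse1, Bcor, Prr12, Hdac1, Bahd1, Bcl6, Bcorl1, Bahcc1 and Rcor1. Kdm1a lay above Gse1 in every comparison of WT libraries, Hdac1 above Bahd1, and Bahd1 above Bcl6. The other neighbours in that order overlapped. The order in KO was Bcor, Gse1, Prr12, Kdm1a, Bahcc1, Hdac1, Bahd1, Bcl6, Rcor1 and Bcorl1. There the ranges were apart between Gse1 and Prr12 and between Hdac1 and Bahd1, and overlapped for the other neighbours. Bcor and Gse1 stood at percentiles 93.2 and 92.6 of all tested rows in KO, Prr12 at 86.1 and Bahcc1 at 71.6, from 61.5, 63.8, 52.7 and 21.4 in WT.

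The 4 genes did not vary alike among the KO pools. Bcor was highest in KO1 and lowest in KO4, Bahcc1 was likewise highest in KO1 and lowest in KO4, and Gse1 and Prr12 were both highest in KO4 and lowest in KO1. After removal of the group means on the log2(FPKM + 1) scale, Pearson's r over the 7 libraries was 0.73 for Bcor with Bahcc1, 0.55 for Gse1 with Prr12, and -0.59 for Bahcc1 with Prr12. The remaining pairs had 0.12 for Bcor with Gse1, -0.62 for Bcor with Prr12 and -0.41 for Gse1 with Bahcc1. These values pool unlike groups. Over the 4 KO libraries alone, r was 0.70 for Bcor with Bahcc1, 0.60 for Gse1 with Prr12 and -0.72 for Bahcc1 with Prr12. It was -0.59 for Bcor with Gse1, -0.997 for Bcor with Prr12 and -0.98 for Gse1 with Bahcc1. Over the 3 WT libraries r was at least 0.99 for every pair. With 7 libraries in 2 groups, all r values share the same few pools and are given without a test. In WT all 4 had the same order, with WT3 above WT2 and WT2 above WT1, as did 28.0% of all tested rows.

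The within-group SD on the log2 scale was 0.58 for Bahcc1 and 0.58 for Prr12, both at percentile 97.2 of all tested rows, 0.38 for Bcor and 0.31 for Gse1. The median over all tested rows was 0.25, and the relatives ran from 0.15 for Bcorl1 to 0.41 for Bcl6. For Prr12 the spread lay among the KO pools, with deviations of -0.86 to 0.75 in KO and -0.15 to 0.16 in WT. For Bahcc1 they were -0.91 to 0.69 in KO and -0.36 to 0.33 in WT.

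**Figure D3:**
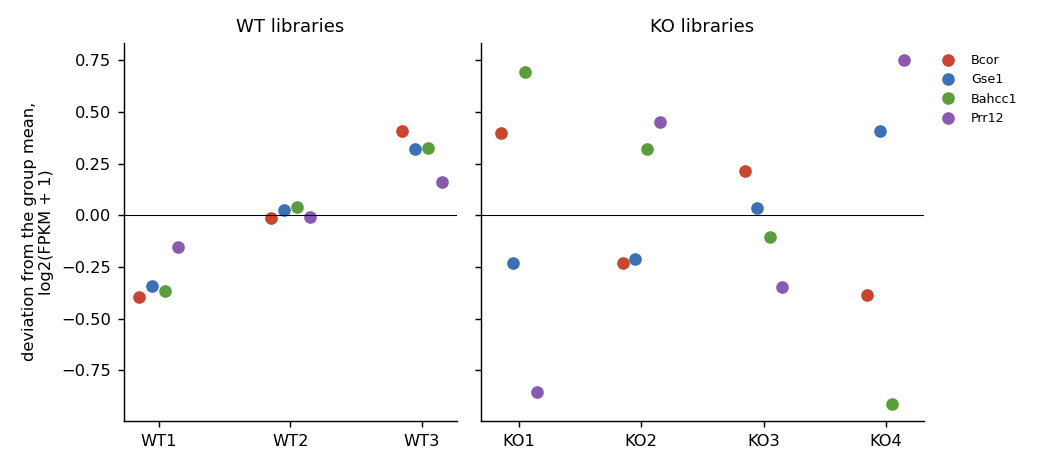
Deviation of each rising gene from its group mean, in log2(FPKM + 1), in the 7 libraries. KO1 is highest for Bcor and Bahcc1 and lowest for Gse1 and Prr12, and KO4 is lowest for Bcor and Bahcc1 and highest for Gse1 and Prr12.

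KO1, where Bcor and Bahcc1 were highest, also had the highest summed markers of other neurons, oligodendrocytes and astrocytes, but not of microglia or endothelial cells. Beside the medium spiny neuron sum (6 of 10 markers in the table), 6 of 6 interneuron markers summed to 91.6 FPKM in KO1 and 9.9 to 29.8 elsewhere, 6 of 7 oligodendrocyte markers to 69.9 against 31.1 to 45.8, and 6 of 6 astrocyte markers to 40.5 against 16.3 to 23.9. The upper end of each of these ranges was KO4, which also had the next highest medium spiny neuron sum (111.0). In KO4 Bcor and Bahcc1 were the lowest among the KO libraries. The interneuron sum in KO1 was mostly Sst (51.0 FPKM) and Npy (34.3), and Nos1 was lowest there (0.4). KO1 also had the lowest sum of the 7 cholinergic markers, 910 FPKM against 1003 to 1321 elsewhere. Not every one of these markers was lowest in KO1, where Slc5a7 stood at 223.7 FPKM, the highest of the KO libraries. Microglial sums (6 of 6) were 0.7 to 1.9 FPKM in WT and 0.3 to 1.2 in KO, endothelial sums (4 of 5) were 1.4 to 2.4 in WT and 1.8 to 4.0 in KO, and no marker was at 0 in all libraries. Without KO1 the log2 differences were 2.83 for Bcor, 2.78 for Gse1, 2.18 for Bahcc1 and 2.38 for Prr12. Without the 3 libraries that lacked Y-linked RNA, which leaves WT1 against KO1, KO3 and KO4, they were 3.44, 3.12, 2.67 and 2.1. These values rest on 1 WT library and on the levels that chose the genes. With a term for Y-linked RNA and all 7 libraries, the log2 differences were 3.01, 2.75, 2.60 and 2.30 in the same order of genes. They too rest on the levels that chose the genes. Beyond that fit, the part of Y-linked RNA or of the other markers in the result was not tested.

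The 4 rising genes have long transcripts, and Gse1, Bahcc1 and Prr12 have GC-rich ones, properties that the choice did not use and that some relatives have too. In the GENCODE annotation of mm10, Bcor (ENSMUSG00000040363.15) spans chrX:12036740-12160355 on the minus strand, and its transcript with the longest coding sequence has 6941 bases in 15 exons. Gse1 (ENSMUSG00000031822.20) spans chr8:120228456-120581390 on the plus strand, with 7127 bases in 16 exons. Bahcc1 (ENSMUSG00000039741.15) spans chr11:120232947-120292296 on the plus strand, with 10726 bases in 28 exons. Prr12 (ENSMUSG00000046574.8) spans chr7:45027563-45052881 on the minus strand, with 7023 bases in 14 exons. Their lengths lay at percentiles 91.7, 92.4, 98.3 and 92.0 of the tested rows, whose median was 2973 bases. GC content was 53.0% for Bcor, 57.1% for Gse1, 60.3% for Bahcc1 and 62.3% for Prr12, beside a median of 50.2%. These GC contents lay at percentiles 64.9, 85.5, 95.5 and 98.3. The relative Bcorl1 was longer than Bcor, at 7446 bases (percentile 93.5) and 54.3% GC (percentile 71.6), and Bahd1 had a GC content at percentile 94.0. The log2 differences of Bcorl1 and Bahd1 were -0.28 and -0.06, with 95% intervals that include 0. With trends over GC content and length removed, they were -0.13 and 0.20.

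Across all tested rows the log2 difference fell with GC content. Its median was 0.19 in the 2505 annotated rows with the lowest GC content and -0.16 in the 2506 with the highest, which include Gse1, Bahcc1 and Prr12. With trends over GC content and length removed, the log2 differences were 3.09 for Bcor, 2.94 for Gse1, 2.75 for Bahcc1 and 2.46 for Prr12. Each was larger than without the removal.

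**Figure D4:**
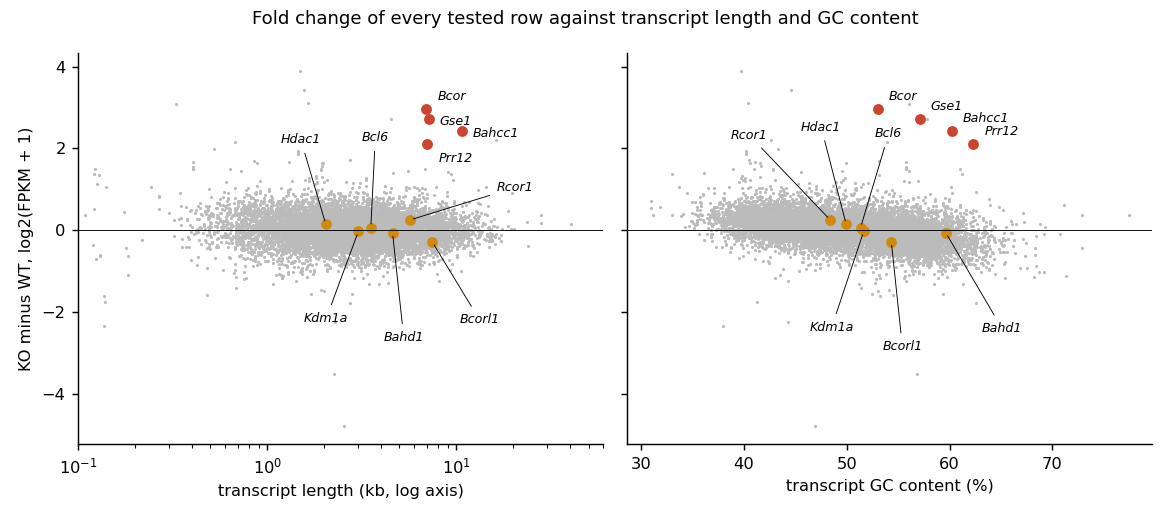
Log2 difference between KO and WT of every tested row with annotation (grey) against transcript length on a log axis and against GC content, with the 4 rising genes in red and the 6 relatives in orange. The rising genes lie far above the cloud at lengths and GC contents where most rows are near or below 0.

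The encoded proteins have 1759 residues for BCOR, 1223 for GSE1, 2643 for BAHCC1 and 2035 for PRR12, and 17.6% of the residues of PRR12 are proline. BCOR and BCORL1 were 31.6% identical over 1599 aligned residues, along nearly their whole length. BAHCC1 and BAHD1 were 31.2% identical over 202 aligned residues only, in a stretch near the end of BAHCC1 from residue 2388 to 2604. None of the transcript of Bcor, 1.37% of that of Bahcc1 and 0.0143% of that of Prr12 consists of 31-base words found in other genes. For Gse1 the share was 38.4%, and its annotated exons overlap 2758 exonic bases of Gins2 on the opposite strand. The handling of strand was not given in the sources used here, so reads from Gse1 and Gins2, a subunit of the replicative helicase complex, may not be told apart there. Gins2 was listed at 7.7, 8.1 and 5.8 FPKM in WT and 10.2, 7.6, 13.6 and 10.8 in KO, with a log2 difference of 0.48 (limma adjusted p = 0.22). Gse1 was 1.56 to 3.38 times as high as Gins2 in WT and 8.04 to 13.2 times in KO.

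The genes lie on 4 chromosomes, and the nearest tested gene on either side did not pass the test in any of the 8 cases, with limma adjusted p from 0.22 to 0.97. Prrg2, which lies upstream on the same strand and ends 703 bases from Prr12, had a log2 difference of -0.03, and Rras, on the other side of Prr12, one of 0.07. Atp6ap2 and Mid1ip1, the tested neighbours of Bcor, had 0.27 and -0.24. Slc38a10 and Actg1, beside Bahcc1, had -0.15 and -0.10, and 6430548M08Rik, beside Gse1, had -0.25.

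The wider complexes were described with 9 lists of corepressor and polycomb genes. Apart from the 10 genes above, 69 list genes were tested. Of these, 0 passed as higher and 1 as lower in KO, which is 1.45% of them beside 1.74% of all tested rows. At an unadjusted p of 0.05, 5 had positive and 12 negative differences, together 24.6% beside 18.8% of all tested rows. The median log2 difference was -0.02, beside 0.03 over all tested rows. All KO libraries were above all WT libraries in 5 genes and below in 13, which is 7.25% and 18.8% beside the 9.11% and 8.29% of all tested rows.

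PRC1.1, the complex of BCOR, had 9 other tested genes, with 7 positive and 2 negative differences, a median of 0.15 and none past the test. Yaf2, a RING-binding subunit, was at 62.7, 73.7 and 89.4 FPKM in WT and 108.6, 116.4, 106.6 and 109.9 in KO, with the groups apart and a log2 difference of 0.56 (limma adjusted p = 0.091). Its paralog Rybp had 0.17 (limma adjusted p = 0.51), also with the groups apart, and the ubiquitin ligase gene Ring1 0.31 (limma adjusted p = 0.51). In the list of BCL6 and its corepressors, 0 of 9 other tested genes passed and the median was -0.0045. The class II deacetylase genes Hdac4 and Hdac5 had log2 differences of -0.72 (limma adjusted p = 0.093) and -0.42 (0.19), with all KO libraries below WT, and Tbl1x, of the NCoR complex, had 0.23 (0.46).

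The LSD1-CoREST list had 0 of 9 other tested genes past the test, 7 positive and 2 negative, with a median of 0.13. Its smallest p-values belonged to Zmym3 at -0.34 (limma adjusted p = 0.21), Hmg20b at -0.52 (0.24) and the reader of unmethylated H3K4, Phf21a, at 0.44 (0.25). In the BAH domain list 0 of 8 others passed, with 1 positive, 7 negative and a median of -0.27. The positive one was Tnrc18, the closest relative of Bahcc1, at 7.0, 5.8 and 7.4 FPKM in WT and 51.5, 14.3, 16.5 and 10.3 in KO. The groups were apart and KO1 stood far above the rest. Its log2 difference was 1.37 (SE 0.40, limma adjusted p = 0.10), and without KO1 it was 0.91 with a limma adjusted p of 0.026, so its call changed with that library. Bahcc1 was 0.30 to 0.541 times the level of Tnrc18 in WT and 0.649 to 1.79 times in KO. The maintenance methyltransferase gene Dnmt1 had -0.49 (limma adjusted p = 0.18) and Mta2 -0.34 (0.29), both with all KO libraries below WT.

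Among PRC2 genes and readers of H3K27me3, 0 of 10 passed, 3 were positive and 7 negative, and the median was -0.25. Cbx6, a polycomb reader, had -0.55 (limma adjusted p = 0.12), Phf1 -0.53 (0.30) and Aebp2 -0.35 (0.34). The NuRD list of 9 had 3 positive and 6 negative differences and a median of -0.06. Its remodeller gene Chd5, a paralog typical of neurons, fell from 18.1 ± 1.42 to 9.78 ± 1.60 FPKM (SD, n = 3 and n = 4). It was at 17.4, 19.7 and 17.1 FPKM in WT and 11.7, 10, 7.8 and 9.6 in KO, with the groups apart. Its log2 difference was -0.83 (SE 0.17, limma adjusted p = 0.032). That call was kept without KO1 (limma adjusted p = 0.011) and lost without any 1 of the other 6 libraries (limma adjusted p = 0.065 to 0.177), while the log2 difference ran from -0.92 to -0.74 over these 7 fits. It was also lost with no filter on low values (limma adjusted p = 0.059), with a term for Y-linked RNA (0.064), and with GC and length trends removed, where the log2 difference was -0.58 (0.067). Chd3 and Chd4, its paralogs, had -0.62 (limma adjusted p = 0.16) and -0.55 (0.19), and the methyl-CpG protein gene Mbd3 -0.65 (0.063). Cdk2ap1, a small subunit, had a positive difference of 0.38 (limma adjusted p = 0.20) with all KO libraries above WT, and is named after its value was seen.

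The SIN3 list had 0 of 8 past the test, 4 positive and 4 negative. Its smallest p-values were those of Ing2 at -0.41 (limma adjusted p = 0.24), Sap30 at 0.42 (0.30) and Brms1l at -0.22 (0.41). Genes repressed by BCL6 in B cells had 0 of 7 past the test, with 4 positive, 3 negative and a median of 0.03. The cyclin gene Ccnd2 had 0.86 (limma adjusted p = 0.16), the inhibitor gene Cdkn1b -0.52 (0.16) and Myc 0.24 (0.59). Qser1, the paralog of Prr12, was not analysed here.

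**Figure D5:**
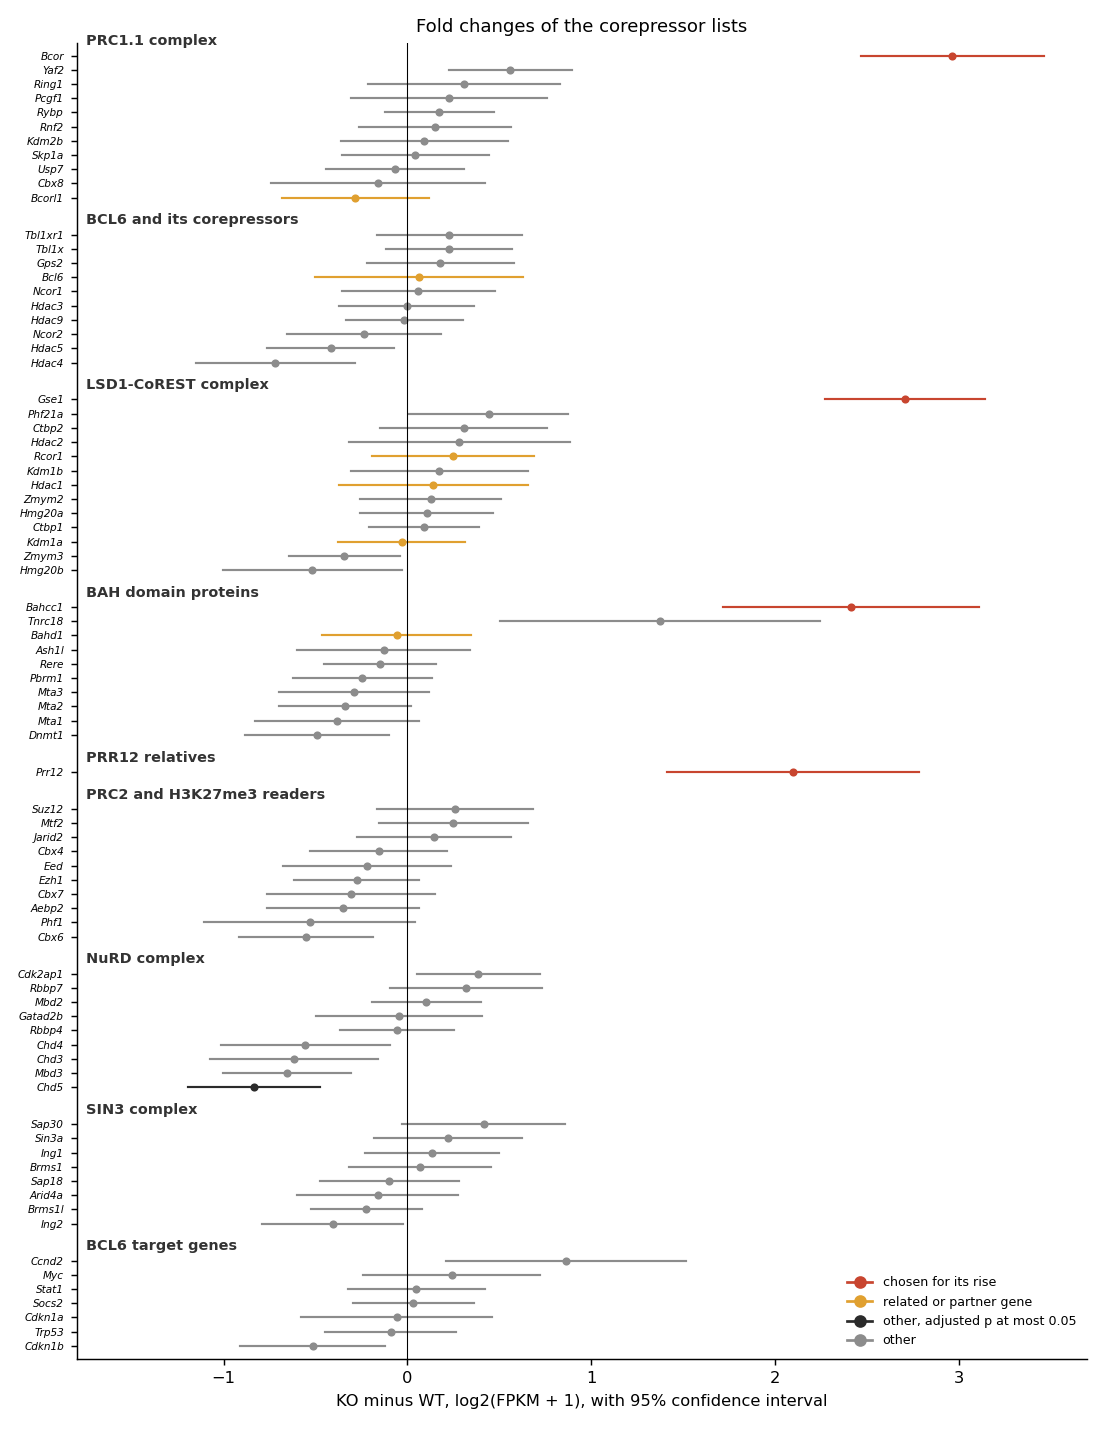
Log2 difference between KO and WT with its 95% confidence interval for the tested genes of the 9 lists. The 4 genes chosen for their rise (red) lie above 2, the 6 relatives (orange) span 0, and Chd5 (black) is the 1 gene past the test among the 69 other list genes.

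The tested genes most like each rising gene over the 7 libraries, by Pearson's r of log2(FPKM + 1), were B2m (0.984), Armcx2 (0.982) and Tma7 (0.982) for Bcor, and Etaa1 (0.997), Cdr1 (0.996) and Desi1 (0.988) for Gse1. For Bahcc1 they were Gucy1a3 (0.990), Enkd1 (0.989) and Armcx2 (0.988), and for Prr12 they were Ccl21b (0.992), Trim41 (0.991) and Irak1bp1 (0.987). All of these had positive differences, since the gap between the groups carries most of such an r. Among them, Ccl21b, a symbol with several rows, averaged 0.067 FPKM in WT, below the rounding step of 0.1, and 2.5 in KO. Enkd1 was low too, at 1.4 and 2.7 FPKM. After removal of the group means, the likest over the same 7 libraries were Cgref1 (0.989) for Bcor, Dctn1 (0.986) for Gse1, Senp2 (0.996) for Bahcc1 and Gnaz (0.996) for Prr12. Their log2 differences were -0.17, -0.29, 0.13 and -0.40, and none of the rising genes was among the 3 likest of another.

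The authors' deposited table of 113 genes lists 3 of the 10 genes. In the authors' deposited table the fold of KO over WT is 8.09 for Bcor, 7.04 for Bahcc1 and 6.70 for Gse1, which rank 11, 14 and 15 by log2 fold. Prr12 is not among its rows. Of the other list genes, the authors' deposited table holds Chd5 alone, with a fold of 0.529.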

How the data were processed

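Ribosome-bound RNA was measured in 3 WT and 4 KO libraries, grouped by sample title. Per the labels' protocols, 1 ng of RNA per library was amplified with the Ovation RNA-seq V2 kit. The authors deposited FPKM values rounded to 0.1, so an exact 0 may be a small value, and the depth was unknown. They also deposited a table of 113 genes holding group means, a ratio (fold) of KO to WT, the log2 of that ratio and a p-value, of which only the folds and their ranks were used. The submitters' processing notes name TopHat2 2.0.8, Cufflinks 2.1.1, DESeq 1.10.1 and mm10, without roles. Annotation, strand and multiply matching reads: how these were handled is not given in the sources used here.

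Values were transformed to log2(FPKM + 1), 1 row per symbol was used for named genes (the row with the highest mean), and limma 3.58.1 (R 4.3.3; eBayes, trend, two-sided) compared KO with WT in the 10089 rows whose mean reached 1 FPKM. P-values were adjusted by Benjamini-Hochberg over all of these rows, with a threshold of 0.05. The script was tested on simulated data. Structure came from the GENCODE annotation of mm10, which held 99.3% of the tested rows; promoters came from RefSeq, where Hdac1 was not matched. Proteins were aligned with Biopython 1.88 (BLOSUM62, gap costs 11 and 1). Tables and figures used pandas 2.3.3, matplotlib 3.10.9 and Python 3.11.15.

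The 10 genes, the 9 pathway lists, the 7 marker lists and the alternatives were chosen with earlier results of these data known. Named genes were the 10 members, S100a10 as a check, list members past the threshold with up to 3 others of smallest p per list, neighbours, and the 3 likest genes by r. The alternatives changed the pseudocount, filter, normalization, variance model, replicate block, a term for Y-linked RNA, GC and length trends, the rows of a symbol, and each library in turn. Rcor3, Epop, Gatad2a, Sin3b, Suds3, Arid4b, Bcl2l1 and Ptpn6 of the lists were not analysed here.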

Additional observations from a re-analysis of the deposited data

Results flagged for a closer look

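In 3 of 45 sets of 4 KO libraries examined, 1 library lay apart from the other 3 by more than Dixon's critical value at the 95% level allows for 4 samples, which chance passes in about 1 in 20 sets. Tnrc18, the relative of Bahcc1, stood at 51.5 FPKM in KO1 and at 10.3 to 16.5 in the other KO libraries, a gap of 0.850 of the range. Mbd3, of the NuRD complex, stood at 31.6 FPKM in KO3 and at 25 to 26.1 in the others, a gap of 0.833 of the range. Myc, a BCL6 target in B cells, stood at 2.5 FPKM in KO4 and at 1.2 to 1.4 in the others, a gap of 0.846 of the range. None of the 10 corepressor genes and relatives was among them. The WT groups of 3 libraries were not examined in this way.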

How the results depend on the processing

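The log2 differences of Bcor, Gse1, Bahcc1 and Prr12 stayed positive under all 21 alternatives, as the choice by rise in these same libraries favours. Leaving out 1 library at a time gave 2.77 to 3.17 for Bcor, 2.54 to 2.87 for Gse1, 2.18 to 2.72 for Bahcc1 and 1.85 to 2.38 for Prr12. A pseudocount of 5 gave 1.67 for Bahcc1. Without the 3 libraries with no Y-linked RNA, an alternative chosen after seeing the data in which the lone WT library is assumed to vary like the others, Bcor had 3.44 and Gse1 3.12, and 19 rows were called in all. None of the 6 relatives passed the test under any alternative (limma adjusted p at least 0.061, for Rcor1). Bcorl1 stayed negative in every alternative that tested it (-0.37 to -0.13), and the signs of the other relatives were not stable. Bahd1 was at 0.20 with GC and length trends removed, at 0.28 without the Y-less libraries and at -0.20 to 0.075 with 1 library left out, Kdm1a at -0.11 to 0.075, Hdac1 at -0.052 to 0.29 and Bcl6 at -0.18 to 0.19. Rcor1 was at -0.10 without the Y-less libraries, and Bcl6 was at -0.071 with array weights and -0.13 with a term for Y-linked RNA. With a filter of 5 FPKM, Bcorl1, Rcor1 and Bcl6 were not tested.

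The count of rows called was 176 and moved to 83 without a filter, 100 without trend, 1689 with array weights and 28 to 376 with 1 library left out. The count of list genes called, Chd5 alone in the report, was 0 without a filter, with the Y term, with GC and length trends removed and without the Y-less libraries, 2 after quantile normalization, 15 with array weights and 0 to 5 with 1 library left out. The 11 weakened single-gene calls were all Chd5; 17 others were strengthened. The cause was not tested.

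Same-numbered WT and KO libraries did not deviate together (r = -0.22, 0.02 and -0.26 across genes), so the numbers were not taken as pairs. With the replicate block, which drops KO4, 18 rows and 0 list genes were called, and Kdm1a was at 0.075 and Bcl6 at -0.18. By r of deviations from the group means across genes, no WT library was most like the KO library of its own number. The few pools, rounding to 0.1 FPKM and unknown depth limit what can be said of the genes below about 5 FPKM.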
